A study of Homo sapiens with 8 samples.

Results

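MOLM-13 is an established human acute myeloid leukaemia cell line, and the 4 libraries described here compare MOLM-13 cells carrying a lentiviral short hairpin RNA against ALKBH5 (shALKBH5) with MOLM-13 cells carrying a non-specific hairpin (shNS). They were taken by their labels as the MOLM-13 libraries among 8 RNA-seq libraries of the study, 2 with each hairpin, numbered replicates 1 and 3. Both hairpin groups shared the same parental line, lentiviral delivery and puromycin selection. The selection is given as 4 days in the series text and as 1 week in the sample protocols. The sample protocols also name a virus against FTO and compound treatments that no MOLM-13 label lists, and the culture conditions are given only for another line. The knockdown rests on 1 hairpin, numbered 1 in the labels. Whether same-hairpin libraries were grown as independent cultures is not stated, and the p-values given here therefore reflect library-to-library spread alone, possibly technical. Of 26830 gene symbols, 12603 reached 1 TPM (a length-scaled share of all transcripts in a library, which add up to 1000000) in at least 2 of the 4 libraries and were tested.

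N6-methyladenosine (m6A) is a methyl mark on adenosines inside messenger RNA. A nuclear complex built around METTL3 and METTL14 writes it, the demethylases ALKBH5 and FTO remove it, and reader proteins of the YTH and IGF2BP families bind it and alter the splicing, decay or translation of the transcript. In acute myeloid leukaemia ALKBH5 has been studied as a gene that leukaemia cells need for growth. MOLM-13 cells carry an MLL fusion and an internal tandem duplication of FLT3, and they stand at a stage between granulocyte precursor and monocyte.

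ALKBH5 lies on chromosome 17 (18183078 to 18209954, plus strand, GRCh38) and was measured at 45.69 TPM in shNS replicate 1, 45.79 in shNS replicate 3, 9.45 in shALKBH5 replicate 1 and 7.35 in shALKBH5 replicate 3. Both knockdown libraries were therefore below both controls and close to each other for the targeted gene. The group means were 45.7 ± 0.0707 TPM (SD, n = 2) and 8.40 ± 1.48 TPM (SD, n = 2). On the log2(TPM + 1) scale used for all tests ALKBH5 fell by 2.32 (SE 0.19, adjusted p = 0.00782).

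At an adjusted p of 0.05 (limma, Benjamini-Hochberg over all genes tested), 532 genes were higher in the knockdown (4.22% of the genes tested) and 2061 were lower (16.4%). Changes of at least 2-fold were found for 285 of the higher and 1520 of the lower genes. With 2 libraries a group, values that do not overlap between groups are common: 2641 genes (21%) were higher in both knockdown libraries than in both controls and 6382 (50.6%) were lower. The median gene stood 0.25 below its control on the log2 scale, and the split between higher and lower calls moved with the scaling. Higher genes made up 20.5% of calls in the deposited TPM, 39.6% after median-of-ratios scaling, 45.3% after quantile scaling and 23.9% once structural RNA and histone genes were left out, and those scalings moved the median change to -0.02, 0.02 and -0.20. Of the 2593 calls, 2452, 2339 and 2520 were also made, in the same direction, under those 3 scalings. Without shNS replicate 1 the calls were 236 higher and 726 lower, and without shNS replicate 3 they were 242 and 783. Without shALKBH5 replicate 1 they were 1811 and 7205, and without shALKBH5 replicate 3 they were 2984 and 4767, in fits that assume the lone knockdown library to vary as the controls did.

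The 2 knockdown libraries were much less alike than the 2 controls. Over the 7973 genes of at least 10 TPM on average, the log2 difference between the libraries of a group had an SD of 0.156 for shNS and 0.538 for shALKBH5. Over all genes tested, 148 differed at least 2-fold between the control libraries and 1010 between the knockdown libraries. Relative to the control mean, shALKBH5 replicate 1 had 798 genes at least 2-fold higher (6.33%) and 1239 at least 2-fold lower (9.83%). In shALKBH5 replicate 3 there were 423 such genes higher (3.36%) and 2930 lower (23.2%). A gene above both controls in replicate 1 and below both in replicate 3 was found 1914 times (15.2%), and the reverse 239 times (1.9%). Each knockdown library set against the control of the same number gives 2 differences that share no library, and over the 12603 genes these had a Pearson r of 0.736 and a Spearman coefficient of 0.772, as a description across genes, which are not independent replicates. Genes of structural RNA and histones held 4.17% and 3.60% of all TPM in the controls, 5.85% in shALKBH5 replicate 1 and 10.3% in replicate 3; since TPM is a share, more of it in these genes leaves less for all others.

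**Figure D1:**
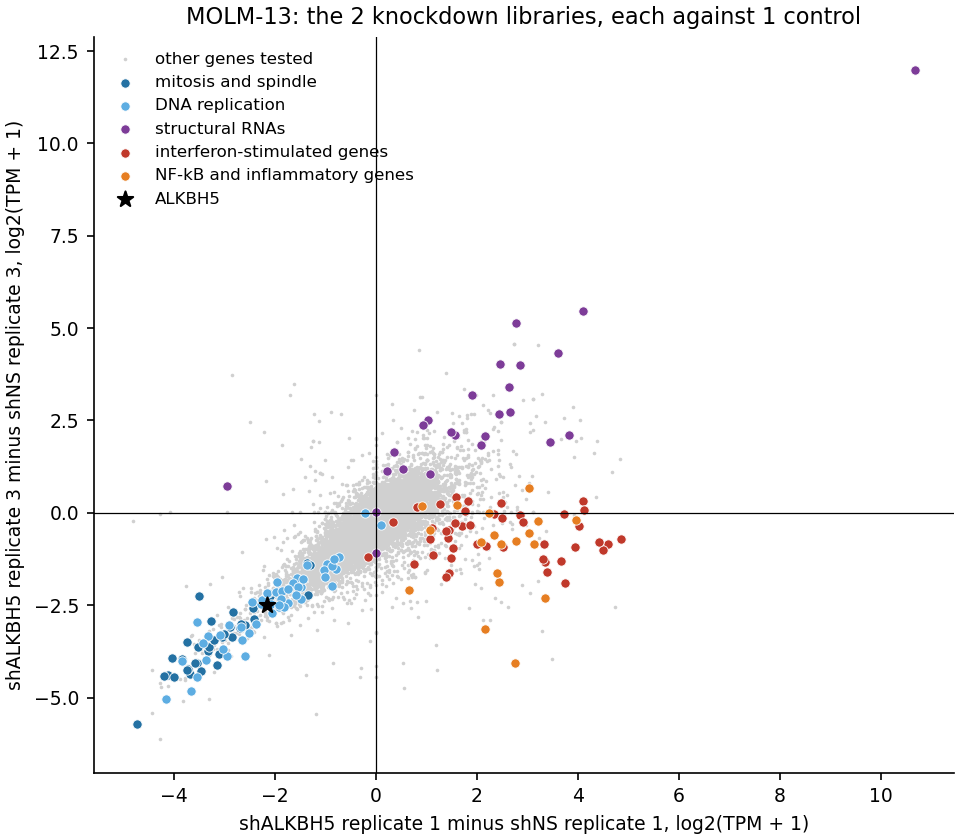
Each point is 1 of 12603 genes; the horizontal axis is shALKBH5 replicate 1 minus shNS replicate 1 and the vertical axis shALKBH5 replicate 3 minus shNS replicate 3, both in log2(TPM + 1). Mitosis and DNA replication genes lie at the lower left in both libraries, structural RNAs mostly at the upper right, and interferon-stimulated and inflammatory genes to the right of 0 but mostly at or below 0 on the vertical axis.

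The libraries carried the markers of myeloid leukaemia. All 12 members of a list of myeloid leukaemia identity genes were measured, among them LYZ, the lysozyme of monocytes and granulocytes (9126 and 8493 TPM in the controls, 19263 and 12121 in the knockdown), SPI1, the PU.1 transcription factor (216 and 224, 377 and 245), and the surface antigen CD33 (87.3 and 96.4, 129 and 125). These 3 stood above both controls in both knockdown libraries, but the list did not move as 1 group. Of its 12 members 1 was called higher and 3 lower, against 4.22% and 16.4% of all genes tested. In 5 of the 12 both knockdown libraries were above both controls and in 5 below both, against 21% and 50.6% of all genes tested. FLT3, HOXA9 and MEIS1 were among the 5 below. Markers of other cell types were mostly low. The 9 megakaryocyte markers summed to 8.87 and 7.86 TPM in the controls and to 16.9 and 11.6 in the knockdown, with PF4 and PPBP at 0 in each library, and the part of these markers in other results was not tested. The 12 erythroid markers summed to 0.19 and 0.25 TPM in the controls and to 0.50 and 14.2 TPM in shALKBH5 replicates 1 and 3, of which HBB, listed at 0 in the other 3 libraries, made 14.03. The 6 fibroblast markers summed to between 0.24 and 1.41 TPM. The lymphoid list summed to between 67.7 and 88.6 TPM, most of it NKG7, a granule membrane protein (59.2 and 61.6, 74.7 and 84.0 TPM). The B cell gene PAX5 also passed the level filter. The T cell genes CD3E and CD3G and the B cell gene MS4A1 were at or below 0.14 TPM in each library.

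The largest falls were in genes of the cell division cycle. Among the 15 genes with the deepest fall, 14 act in DNA synthesis, mitosis or their control. MKI67, the Ki-67 proliferation antigen, was at 115 and 116 TPM in the shNS libraries against 3.36 and 1.23 in the knockdown (log2 change -5.23, SE 0.35, adjusted p = 0.00619). CDK1, the kinase that drives entry into mitosis, was at 90.8 and 88.8 against 3.78 and 0.28 TPM. TYMS, thymidylate synthase, was at 196 and 203 against 10.0 and 5.18 TPM. These genes were picked among called genes whose groups do not overlap. Both knockdown libraries therefore had to lie below both controls in each of them.

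Promoters of 2 mitotic and 2 replication genes are shown because these 2 groups fell together and their start sites differ in motif content. Each sequence is the 150 bases before the annotated start, written 5′ to 3′ on the gene's strand (RefSeq, GRCh38.p14), with matches in capitals. In PLK1 and ASPM the capitals are the cell cycle homology region (TTTGAA or TTTAAA) and the CCAAT box (CCAAT), on either strand. In DTL and GINS2 they are E2F sites (TTTGGCGC, TTTCGCGC or TTCCCGCC, either strand). The genes were chosen as those of smallest p in their list with 1 annotated start and a match in these bases.

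PLK1, chr16:23678739-23678888, plus strand: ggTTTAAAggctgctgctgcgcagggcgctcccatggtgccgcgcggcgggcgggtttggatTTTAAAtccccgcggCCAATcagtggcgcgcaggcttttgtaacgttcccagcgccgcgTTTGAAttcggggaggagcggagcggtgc

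ASPM, chr1:197146670-197146819, minus strand: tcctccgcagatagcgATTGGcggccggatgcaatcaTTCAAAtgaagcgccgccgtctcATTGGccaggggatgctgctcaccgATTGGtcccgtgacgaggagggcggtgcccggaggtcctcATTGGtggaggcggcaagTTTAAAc

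DTL, chr1:212035598-212035747, plus strand: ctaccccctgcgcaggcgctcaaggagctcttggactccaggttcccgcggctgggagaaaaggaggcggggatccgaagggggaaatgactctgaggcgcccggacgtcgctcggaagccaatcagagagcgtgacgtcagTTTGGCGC

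GINS2, chr16:85688955-85689104, minus strand: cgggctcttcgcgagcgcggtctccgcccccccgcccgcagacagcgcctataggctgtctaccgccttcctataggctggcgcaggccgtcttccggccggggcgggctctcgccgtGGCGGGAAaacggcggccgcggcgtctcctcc

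Over windows of 300 bases, from 250 before to 50 after the first start listed for each gene, the cell cycle homology region was present in 28 of the 34 mitosis genes that had a promoter entry (82.4%), in 4 of 43 replication genes (9.30%) and in 1462 of 9072 genes tested (16.1%). The CCAAT box was present in 27 mitosis genes (79.4%), 26 replication genes (60.5%) and 3369 of all genes (37.1%). E2F sites were present in 4 mitosis genes (11.8%), 21 replication genes (48.8%) and 649 of all genes (7.15%). These are matches of letters, and no binding was measured.

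All 39 genes listed for mitosis and the spindle was measured and fell, with a median change of -3.13 in shALKBH5 replicate 1 and -3.40 in replicate 3, against medians of -0.11 and -0.43 over all genes tested. PLK1, the Polo-like kinase of mitotic entry and exit, was at 57.9 and 59.3 TPM in the controls and 3.15 and 2.86 in the knockdown (log2 change -3.90, SE 0.16, adjusted p = 0.00569). ASPM, a spindle pole protein, was at 26.9 and 26.8 against 0.53 and 0.30 TPM, and NDC80, which anchors kinetochores to microtubules, at 26.9 and 22.8 against 0.70 and 0.57 TPM. ASPM and NDC80, and CDC45, E2F8, E2F2, NCAPG and ETV4 below, were under 1 TPM in both knockdown libraries. These genes passed the level filter only through the controls and so had to differ. UBE2C, the ubiquitin carrier of the anaphase-promoting complex, was at 42.7 and 42.5 against 2.79 and 2.48 TPM. The smallest fall of the 4 cyclin and Aurora genes CCNA2, CCNB1, AURKB and AURKA, named after their values were seen, was that of AURKA (39.5 and 39.6 against 14.8 and 14.8 TPM, -1.36, adjusted p = 0.0135). TACC3, a microtubule-binding spindle protein that was fixed as a gene of interest, was at 59.6 and 58.0 TPM in the controls and 23.5 and 21.04 in the knockdown (-1.36, SE 0.16, adjusted p = 0.0144). Without 1 control library, 37 of the 39 mitosis genes were called, whichever control was left out.

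Genes that copy DNA fell as a group, less deeply at the median (-1.92 in shALKBH5 replicate 1 and -2.38 in replicate 3). Of 50 listed, 46 were lower and none was higher. CDC45, a helicase subunit, was at 26.9 and 26.9 TPM in the controls against 0.95 and 0.72. GINS2, another subunit of that helicase, was at 30.9 and 33.6 against 2.17 and 2.43 TPM. DTL, which directs the licensing factor CDT1 to degradation, was at 41.5 and 41.0 against 2.98 and 2.63 TPM, and CHAF1B, a histone chaperone of the fork, at 21.2 and 22.2 against 1.97 and 1.81 TPM. All 6 subunits of the MCM2 to MCM7 helicase core were called; MCM4 was at 183 and 188 against 22.9 and 11.95 TPM. RRM2, the regulated subunit of ribonucleotide reductase, was at 78.8 and 77.0 against 5.33 and 1.73 TPM. The 4 that were not called were RFC2 (-0.96, adjusted p = 0.0523), RFC4 (-1.42, 0.0541), POLD2 (-0.11, 0.671) and RPA2 (-0.11, 0.686), and RPA2, at 60.6 and 66.1 against 65.2 and 52.8 TPM, overlapped between the groups.

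The regulators above these genes were less uniform. In the list of E2F, DREAM and RB regulators 10 of 19 were lower and none was higher (17 lower without shALKBH5 replicate 1; 15 lower and 1 higher without replicate 3). MYBL2 and FOXM1, which switch on late cell cycle genes, were at 76.6 and 76.9 against 3.04 and 2.20 TPM and at 29.9 and 31.2 against 3.05 and 1.46 TPM. E2F8 was at 33.1 and 32.7 against 0.59 and 0.78 TPM and E2F2 at 3.76 and 4.07 against 0.22 and 0.15 TPM. E2F1 parted between the knockdown libraries (18.6 and 20.7 against 2.12 and 9.35 TPM) and was not called (-1.86, adjusted p = 0.0855). E2F4, the repressor E2F of quiescent cells, was at 71.2 and 69.8 against 71.0 and 59.98 TPM (-0.11, adjusted p = 0.651).

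Among 16 measured G1 cyclins, cyclin-dependent kinases and their inhibitors 10 were lower and none was higher. CDK6, the D-cyclin kinase on which MLL-rearranged cells lean, was at 125 and 125 TPM in the controls and 27.8 and 28.1 in the knockdown (-2.12, SE 0.15, adjusted p = 0.00624). CDC25A, the phosphatase that activates CDK2, was at 15.4 and 15.97 against 1.29 and 1.36 TPM, and WEE1, which opposes it, at 23.3 and 23.6 against 2.73 and 1.74 TPM. CDKN1A, the p21 inhibitor, was at 483 and 507 TPM in the controls, 634 in shALKBH5 replicate 1 and 1089 in replicate 3, above both controls in both libraries but not called (0.75, SE 0.29, adjusted p = 0.126). In the p53 target list, to which CDKN1A also belongs, 1 of 27 measured genes was higher and none was lower (GDF15, 0.69 and 0.51 against 2.67 and 2.09 TPM, a gene that passed the level filter only through its knockdown libraries and so had to differ); after median-of-ratios scaling 9 were higher and 2 lower, without shALKBH5 replicate 1, 9 and 7, without replicate 3, 14 and 4, and without either control none was higher. Over all genes tested, 4.22% were higher and 16.4% lower in the deposited TPM. After median-of-ratios scaling 1785 of 12595 genes were higher and 2719 lower. MDM2, the p53 ubiquitin ligase and itself a p53 target, was at 130 and 119 against 131 and 107 TPM (-0.07, adjusted p = 0.789).

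Repair and chromosome structure genes fell with them. Of 32 recombination and Fanconi genes 26 were lower, including CHEK1, the replication checkpoint kinase (20.96 and 19.3 against 1.56 and 1.47 TPM). Of 20 condensin and cohesin genes 17 were lower, with SMC4 at 214 and 197 against 33.9 and 25.7 TPM and NCAPG at 33.1 and 30.9 against 0.97 and 0.24 TPM. None was higher in either list. Outside all lists the deepest falls of protein-coding genes, looked up after the data were seen, again included mitotic genes such as SKA3 (71.5 and 68.1 against 4.28 and 2 TPM) and the centriole kinase PLK4 (25.1 and 23.9 against 1.37 and 1.06 TPM). They also included STMN1, the tubulin-binding stathmin (79.1 and 69.0 against 5.41 and 6.01 TPM), and SLC38A1, a neutral amino acid carrier (39.99 and 39.9 against 3.01 and 2.58 TPM).

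**Figure D2:**
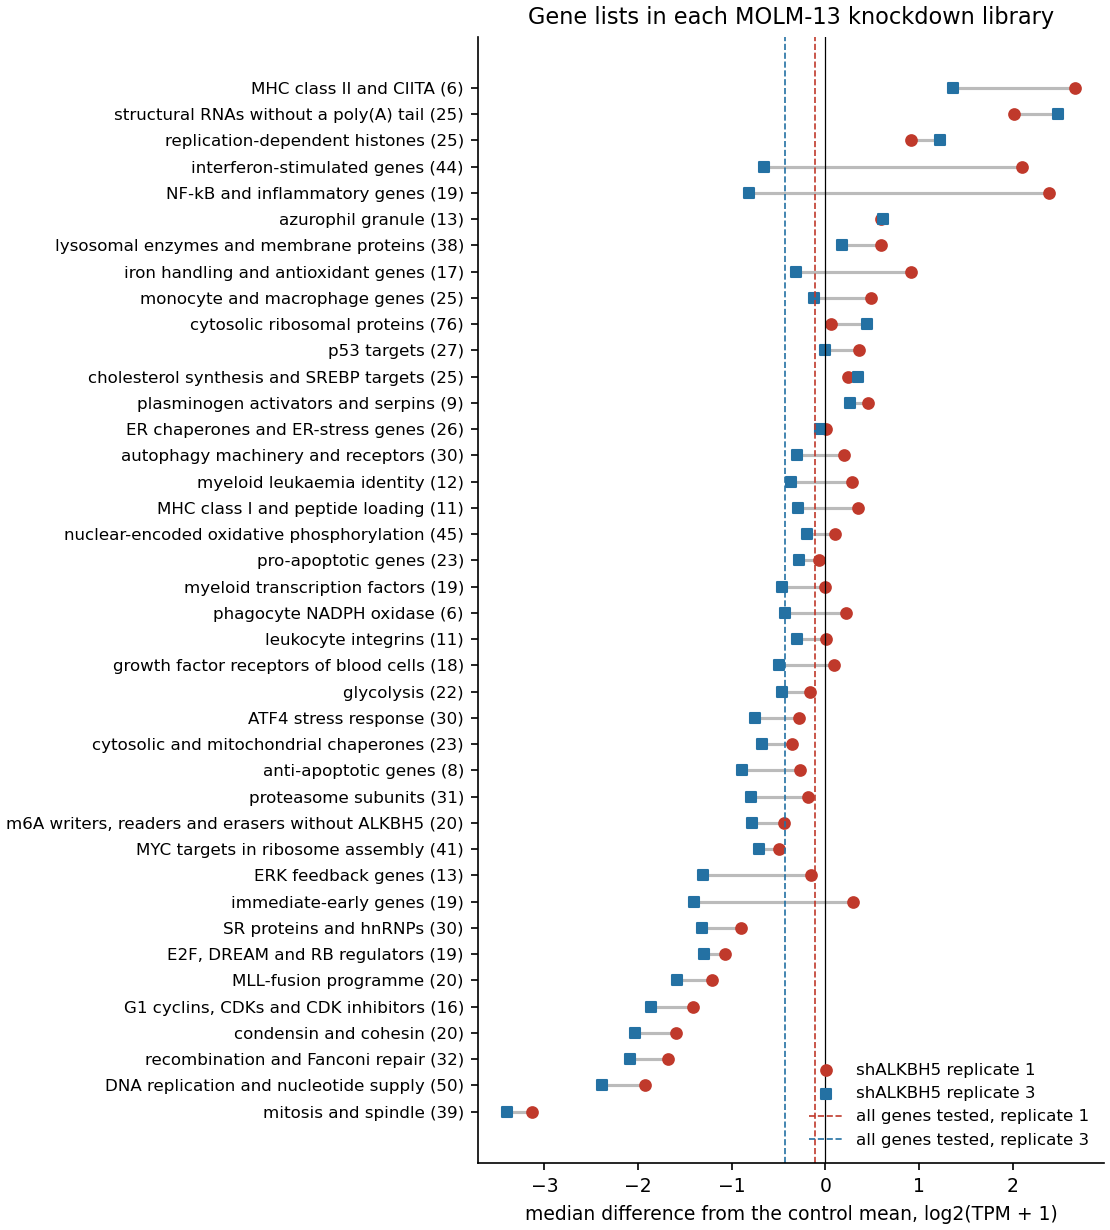
For each gene list with at least 6 tested members (number in brackets), the median difference from the control mean in log2(TPM + 1) is shown for shALKBH5 replicate 1 (circles) and replicate 3 (squares); dashed lines are the medians of all genes tested, -0.11 and -0.43. The cell division lists stand far to the left in both libraries, and the interferon and NF-kB lists have their circles above 2 and their squares below 0.

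Histone genes went against the other genes of DNA replication. Replication-dependent histone messages end in a stem-loop and carry no poly(A) tail, and they are made in S phase. Of 44 listed, 25 passed the level filter; 10 were higher and none lower (22 without shALKBH5 replicate 1; 17 higher and 2 lower without replicate 3). HIST1H4C, a histone H4 gene, was at 2.58 and 2.47 TPM in the controls and 15.7 and 23.0 in the knockdown (2.51, SE 0.23, adjusted p = 0.00977), and HIST1H2AM, a histone H2A gene, at 1.37 and 1.54 against 7.39 and 8.99 TPM. HIST1H3J was listed at 0 in both controls and at 2.05 and 2.41 TPM in the knockdown. The most abundant member, HIST1H2BK, a histone H2B gene that can also be polyadenylated, was at 117 and 116 TPM in the controls, 78.5 in shALKBH5 replicate 1 and 131 in replicate 3 (-0.20, adjusted p = 0.623). A gene that passed the filter only through its knockdown libraries had to differ, and reads of these near-identical genes can be assigned to a wrong copy.

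Structural RNAs, which lack a poly(A) tail, stood above the controls in both knockdown libraries. Of 28 listed, 25 were tested and 17 were higher, with none lower. RN7SK, which holds the elongation factor P-TEFb inactive, was at 74.3 and 61.0 TPM in the controls, 1284 in shALKBH5 replicate 1 and 2747 in replicate 3 (4.78, SE 0.40, adjusted p = 0.00832). RMRP, an RNA that processes ribosomal RNA, was at 2.42 and 0.39 against 22.5 and 47.7 TPM, and SNORD3A, the U3 nucleolar RNA, at 38.4 and 41.2 against 284 and 674 TPM. RPPH1, the RNA of RNase P, was at 6.34 and 4.91 against 44.6 and 61.7 TPM. RNA28S5, the large ribosomal RNA, held 9122 and 6888 TPM in the controls, 17346 in replicate 1 and 35571 in replicate 3, and RNA18S5, the small one, 13451 and 9833 against 17259 and 30536 TPM (1.00, adjusted p = 0.0935). RNA5-8S5 was listed at 0 in both controls and at 1621 and 4046 TPM in the knockdown. Members that passed the level filter only through their knockdown libraries, RNA5-8S5 and RNU4-1 among them, had to differ. RNY1 was listed at 0 in shNS replicate 1 and shALKBH5 replicate 1, at 3.99 TPM in shNS replicate 3 and at 1.36 in shALKBH5 replicate 3. Several of these RNAs have further copies in the genome, so the split between copies is uncertain. The libraries were made after a messenger RNA isolation step per the labels, and residual RNA without a tail moved with the groups; its part in the other results was not tested.

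**Figure D3:**
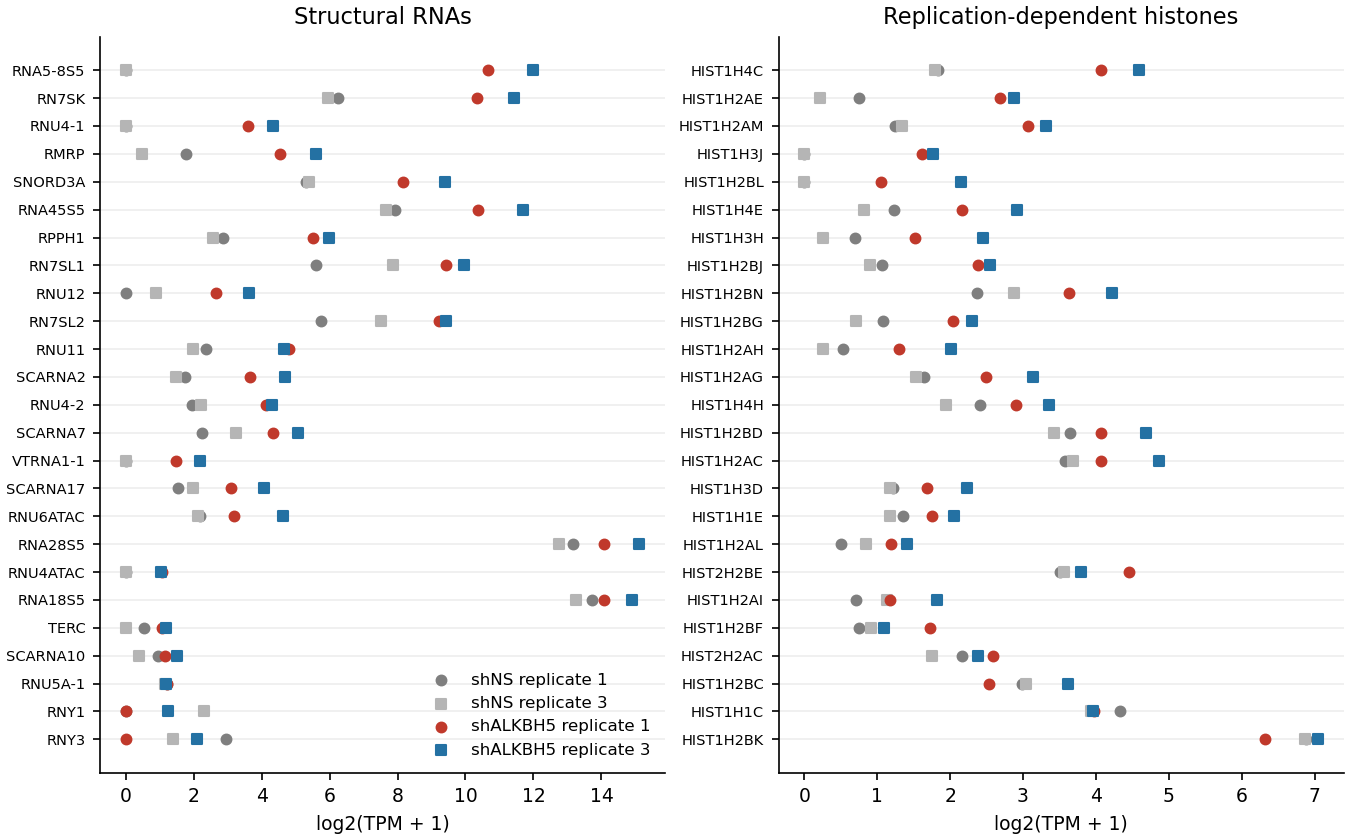
Values of 25 structural RNA genes (left) and 25 replication-dependent histone genes (right) in log2(TPM + 1), 1 row a gene, with control libraries in grey and knockdown libraries in red (replicate 1) and blue (replicate 3). In 22 rows of each panel both coloured points lie to the right of both grey ones, against 21% of all genes tested. Rows that passed the level filter only through the knockdown libraries had to differ.

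Several microRNA genes were among the 15 largest rises. Their rows can hold reads of a longer host or primary transcript, which cannot be told apart from the microRNA here. The mature sequences are given with bases 2 to 8, the seed that pairs with target messages, in capitals (RefSeq, GRCh38.p14), because none of the 4 shares its seed with another.

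hsa-miR-223-3p: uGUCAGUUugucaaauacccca

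hsa-miR-223-5p: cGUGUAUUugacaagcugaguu

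hsa-miR-24-3p: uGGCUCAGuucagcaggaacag

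hsa-miR-24-2-5p: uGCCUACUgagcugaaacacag

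MIR223, a myeloid microRNA gene on chromosome X (66018870 to 66018979, plus strand), was at 2.92 and 2.79 TPM in the controls, 51.05 in shALKBH5 replicate 1 and 21.4 in replicate 3 (3.15, SE 0.43, adjusted p = 0.0185). MIR24-2 was listed at 0 in both controls and at 7.60 and 7.39 TPM in the knockdown. MIR6732 was likewise listed at 0 in both controls and at 8.71 and 8.38 TPM. MIR3648-1 and MIR3648-2, copies in the ribosomal DNA repeats, had identical values (0.35 and 0 against 7.93 and 22.9 TPM), so they count as 1 measurement. MIR24-2, MIR6732 and both MIR3648 copies passed the level filter only through their knockdown libraries and so had to differ.

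The other genes of the m6A pathway differed less than ALKBH5, with a median change of -0.53 against -0.25 over all genes tested. The m6A median was -0.28 after median-of-ratios and -0.20 after quantile scaling, against -0.02 and 0.02 over all genes. Of 20 writers, readers and erasers without ALKBH5, 5 were lower and none was higher, against 16.4% and 4.22% of all genes tested. Their median difference from the control mean was -0.44 in shALKBH5 replicate 1 and -0.78 in replicate 3, against -0.11 and -0.43 over all genes. The calls did not hold when either control library was left out. The called genes were HNRNPA2B1 (-1.20, adjusted p = 0.0236), HNRNPC (-0.84), the reader IGF2BP2 (80.4 and 78.1 against 44.3 and 45.5 TPM, -0.81), the writer subunit CBLL1 (28.4 and 27.5 against 14.97 and 10.5 TPM, -1.09) and the nuclear reader YTHDC1 (34.1 and 32.3 against 21.4 and 18.2 TPM, -0.72, adjusted p = 0.0481). The writers METTL3 (64.8 and 67.4 against 44.8 and 55.7 TPM, -0.40, adjusted p = 0.17) and METTL14 (30.6 and 29.4 against 18.8 and 12.2 TPM, -0.94, adjusted p = 0.0588) were not called. FTO, the other demethylase, was at 17.5 and 17.6 against 12.1 and 8.47 TPM (-0.73, adjusted p = 0.0765), and YTHDF2, a reader that shortens message life, at 84.7 and 85.0 against 70.5 and 52.0 TPM (-0.48, adjusted p = 0.15). Of the genes fixed as of interest, KDM4C, a histone demethylase, was at 14.5 and 13.9 against 15.4 and 12.6 TPM (-0.02, adjusted p = 0.936). The receptor kinase AXL was at 4.39 and 3.95 TPM in the controls, 9.37 in shALKBH5 replicate 1 and 1.92 in replicate 3, so that its fitted change of 0.09 (SE 0.62, adjusted p = 0.928) averages libraries on opposite sides of the controls.

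Genes of the MLL-fusion programme were lower. Of 20 measured, 15 were lower and none higher (9 and 10 lower without shNS replicates 1 and 3). MEF2C, a transcription factor that sustains MLL-rearranged cells, was at 68.9 and 67.3 TPM in the controls and 9.73 and 6.03 in the knockdown (-2.99, SE 0.25, adjusted p = 0.00839). ZNF521, a zinc finger factor of progenitors, was at 32.2 and 33.0 against 6.32 and 6.17 TPM, and BCL2, the survival factor, at 35.9 and 36.1 against 7.97 and 6.01 TPM. MEIS1 and PBX3, partners of HOX proteins, were at 13.6 and 13.3 against 4.09 and 3.74 TPM and at 45.9 and 45.8 against 13.9 and 9.16 TPM. HOXA10 (46.1 and 46.6 against 16.8 and 12.6 TPM) and HOXA9 (96.9 and 94.7 against 52.1 and 32.1 TPM) were lower, while HOXA4 (2.18 and 1.55 against 1.85 and 1.32 TPM) overlapped between the groups. FLT3, the mutated receptor of this line, was at 238 and 229 TPM in the controls, 98.3 in replicate 1 and 39.1 in replicate 3 (-1.89, SE 0.45, adjusted p = 0.0493). MYB was at 305 and 294 against 227 and 243 TPM (-0.35, adjusted p = 0.145), and MYC at 375 and 397 against 206 and 271 TPM (-0.71, SE 0.19, adjusted p = 0.0641); both were below the controls in both libraries without being called.

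Granule proteins did not move as 1 group. MPO, the myeloperoxidase of azurophil granules, was the only 1 of the 15 deepest falls outside cell division, from 384 and 456 TPM to 19.3 and 16.4 (-4.48, SE 0.18, adjusted p = 0.00569), and was called under each of the 14 alternatives. PRTN3, proteinase 3 of the same granules, rose from 556 and 608 TPM to 1638 and 1702 (1.52, SE 0.14, adjusted p = 0.0098), and ELANE, neutrophil elastase, from 697 and 783 to 1482 and 1700. In all, 6 of 13 azurophil granule genes were higher and 3 lower; without either control 1 was higher and 1 lower, and after median-of-ratios scaling 6 were higher and 1 lower. CTSG, cathepsin G, and PRSS57 were the other lower genes (516 and 529 against 273 and 345 TPM; 232 and 266 against 116 and 144 TPM). RNASE2 and RNASE3, eosinophil-type ribonucleases, were at 1198 and 1232 against 2593 and 2053 TPM and at 122 and 121 against 258 and 208 TPM. Among 19 measured myeloid transcription factors, 1 was higher and 3 lower, near the 4.22% and 16.4% of all genes tested (3 and 11 without shALKBH5 replicate 1, 7 and 5 without replicate 3). CEBPB was at 11.96 and 11.8 against 29.2 and 31.2 TPM (1.27, adjusted p = 0.0157), GFI1 at 85.2 and 86.6 against 38.2 and 42.7 TPM (-1.07), and RUNX1 at 98.8 and 102 against 60.3 and 41.7 TPM (-0.99).

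MHC class II genes and a minority of lysosomal genes rose. Of 11 measured MHC class I and peptide-loading genes none was higher and 2 were lower, near the 4.22% and 16.4% of all genes tested. The class I counts were 3 higher and 1 lower after median-of-ratios scaling, 4 and 1 after quantile scaling, 3 and 6 without shALKBH5 replicate 1, 7 and 2 without replicate 3, and 0 without either control. CIITA, the activator of MHC class II genes, was at 1.11 and 1.15 TPM in the controls, 17.1 in shALKBH5 replicate 1 and 9.19 in replicate 3 (2.67, SE 0.32, adjusted p = 0.0145). CD74, the invariant chain, was at 187 and 192 against 906 and 438 TPM, and HLA-DMB, a peptide loader, at 2.28 and 1.94 against 12.9 and 6.45 TPM. HLA-DRB5 was also called (1.37 and 0.92 against 34.5 and 12.9 TPM) but its reads are not separable from other DRB genes, and HLA-DQA1, which passed the level filter only through its knockdown libraries, was not called (0.47 and 0.17 against 28.4 and 2.59 TPM, 2.97, adjusted p = 0.098). Of the 6 measured class II genes, 4 were thus higher, and each of the 5 whose groups did not overlap was higher in replicate 1 than in replicate 3. Of 38 lysosomal genes 9 were higher and none lower (2 higher without either control; 18 higher and 10 lower without shALKBH5 replicate 1; 27 and 4 without replicate 3; 19 and 2 after median-of-ratios scaling). CTSD, cathepsin D, was at 67.9 and 69.7 against 317 and 186 TPM (1.80, SE 0.29, adjusted p = 0.0238), PSAP, the precursor of the saposins, at 343 and 335 against 1838 and 809 TPM (1.85), and GAA, acid alpha-glucosidase, at 17.4 and 18.6 against 43.6 and 50.2 TPM (1.33).

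**Figure D4:**
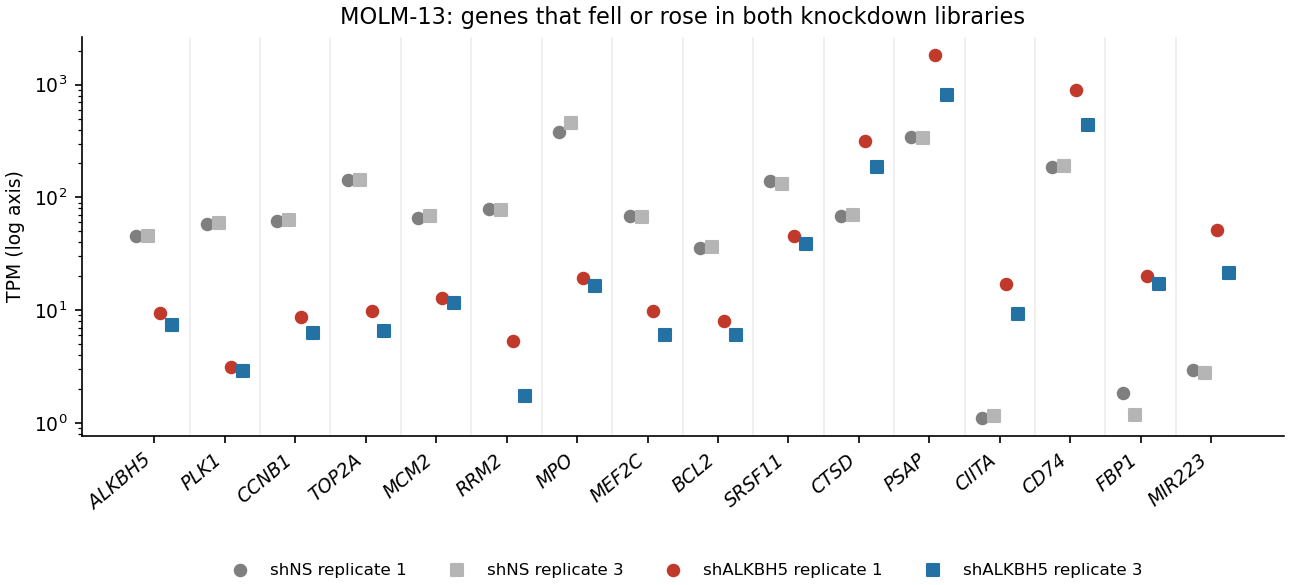
TPM on a log axis in each of the 4 libraries for 16 genes that were called, from ALKBH5 to MIR223; grey marks are shNS and coloured marks shALKBH5, circles replicate 1 and squares replicate 3. The genes were picked as ones that fell or rose in both knockdown libraries, so a shared side follows from the choice. The 2 controls nearly coincide. Both knockdown libraries lie below them for the first 10 genes and above them for the last 6.

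Other single rises outside the lists, looked up after the data were seen, were those of FBP1, fructose-1,6-bisphosphatase of gluconeogenesis (1.83 and 1.17 against 20.3 and 17.03 TPM, 2.98, SE 0.22, adjusted p = 0.00659), LIMA1, an actin-binding protein (7.21 and 6.41 against 43.0 and 33.3 TPM), TREM2, a macrophage lipid receptor (5.20 and 5.29 against 29.8 and 19.2 TPM), and TYMP, thymidine phosphorylase (22.8 and 26.3 against 125 and 80.6 TPM). SERPINB2, the plasminogen activator inhibitor of macrophages, was at 0.83 and 0.76 TPM in the controls, 16.02 in shALKBH5 replicate 1 and 40.1 in replicate 3 (3.88, SE 0.45, adjusted p = 0.014). It passed the level filter only through its knockdown libraries and so had to differ. PLAU, the urokinase that it inhibits, was at 128 and 123 against 215 and 207 TPM (0.75, adjusted p = 0.0328). Mature monocyte genes were mixed: of 36 listed, 25 were tested, 3 were higher (CEBPB, CD68 and the scavenger receptor MARCO) and none lower. Over all genes tested 4.22% were higher and 16.4% lower. After median-of-ratios scaling 8 were higher and 2 lower, without shALKBH5 replicate 1, 8 and 11, and without replicate 3, 14 and 6. MARCO was at 2.90 and 3.35 against 10.3 and 22.5 TPM, and S100A9, a calcium-binding alarmin, at 1461 and 1520 against 553 and 979 TPM (-1.02, adjusted p = 0.0747).

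The knockdown libraries parted over interferon-stimulated genes, which cells switch on when interferon or intracellular viral RNA is sensed. Of 53 listed, 52 had a row and 44 were tested. At least 2-fold above the control mean were 39 in shALKBH5 replicate 1 and none in replicate 3, where 13 were at least 2-fold below it. In 34 of the 44 (77.3%) replicate 1 was above both controls and replicate 3 below both, against 15.2% of all genes tested. With median-of-ratios scaling these were 27 (61.4%) against 6.86% of all genes, and with quantile scaling 25 (56.8%) against 5.97%. No member passed the threshold in the fit of both libraries (limma; smallest adjusted p = 0.128), and none had an unadjusted p under 0.05. Without shALKBH5 replicate 3, 42 members were higher, and without replicate 1, 4 were higher and 26 lower. Without shNS replicate 1 or replicate 3, 9 were higher. IFIT1, which binds viral RNA caps, was at 1.96 and 1.43 TPM in the controls, 70.7 in replicate 1 and 0.35 in replicate 3. IFIT3, its partner, was at 6.98 and 4.85 against 178 and 1.89 TPM, and IFI6, a mitochondrial and ER protein, at 27.9 and 25.8 against 386 and 6.12 TPM. ISG15, a ubiquitin-like modifier, was at 11.6 and 12.8 TPM in the controls, 215 in replicate 1 and 16.2 in replicate 3, where it stood above the controls. The RNA sensor DDX58 was at 13.3 and 12.3 against 38.8 and 4.68 TPM. Of the 8 members that had a row but did not pass the filter, 7 were above both controls in replicate 1, led by the chemokine CXCL10 (0.45 and 0.36 TPM in the controls, 131 in replicate 1 and 0.15 in replicate 3). MX1, a classical interferon-induced GTPase, was the exception at 0.44 and 0.55 against 0.42 and 0.13 TPM.

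Promoters of 3 members are shown because the interferon response element, searched as GAAANNGAA on either strand and given in capitals, lies just before their starts. They are the members highest in shALKBH5 replicate 1 with 1 annotated start and a match in the 150 bases before it (RefSeq, GRCh38.p14).

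IFI6, chr1:27672193-27672342, minus strand: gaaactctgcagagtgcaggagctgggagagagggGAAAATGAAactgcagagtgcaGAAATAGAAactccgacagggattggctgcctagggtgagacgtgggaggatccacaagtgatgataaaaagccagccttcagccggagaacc

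IFITM1, chr11:313890-314039, plus strand: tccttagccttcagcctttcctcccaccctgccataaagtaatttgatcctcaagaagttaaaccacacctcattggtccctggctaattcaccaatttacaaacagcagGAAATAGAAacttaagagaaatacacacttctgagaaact

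BST2, chr19:17405631-17405780, minus strand: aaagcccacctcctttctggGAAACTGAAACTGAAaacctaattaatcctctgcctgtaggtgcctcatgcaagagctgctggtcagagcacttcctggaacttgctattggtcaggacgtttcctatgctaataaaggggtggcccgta

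In the 300-base windows the element was present in 22 of the 34 interferon-stimulated genes that had a promoter entry (64.7%), in 2 of 34 mitosis genes (5.88%), in none of 43 replication genes and in 612 of 9072 genes tested (6.75%). IFITM1, a membrane protein that blocks virus entry, was at 16.98 and 17.7 TPM in the controls, 227 in shALKBH5 replicate 1 and 6.59 in replicate 3. BST2, the tetherin of budding viruses, was at 73.2 and 75.2 against 222 and 101.41 TPM, above both controls in both libraries (1.01, SE 0.39, adjusted p = 0.128).

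NF-kB and inflammatory genes followed the same pattern. Of 30 listed, 29 had a row and 19 were tested. At least 2-fold above the control mean in shALKBH5 replicate 1 were 17, against 6.33% of all genes tested. In 15 of the 19 (78.9%) replicate 1 stood above both controls and replicate 3 below both, against 15.2% of all genes. These were 13 (68.4%) against 6.86% after median-of-ratios scaling and 12 (63.2%) against 5.97% after quantile scaling. No member passed the threshold (limma; smallest adjusted p = 0.137) and none had an unadjusted p under 0.05; without replicate 3 all 19 were higher, without replicate 1, 2 were higher and 13 lower, and without either control 2 were higher. CXCL8, the neutrophil chemokine, was at 59.0 and 44.2 TPM in the controls, 405 in replicate 1 and 1.71 in replicate 3, the widest gap between the knockdown libraries of any gene of at least 10 TPM that lay on opposite sides of the controls. IL1B was at 19.1 and 16.7 against 88.6 and 1.01 TPM, and CCL3, a macrophage chemokine, at 5.38 and 5.80 against 64.2 and 0.38 TPM. The inhibitors NFKBIA and TNFAIP3, which NF-kB itself induces, were at 37.8 and 34.2 against 264 and 19.7 TPM and at 18.9 and 18.6 against 174 and 10.0 TPM. TNFAIP2 (20.2 and 22.2 against 172 and 35.7 TPM) was 1 of 3 tested members above both controls in both libraries, as were 21% of all genes tested. Of the 25 tested monocyte genes 5 stood above both controls in replicate 1 and below both in replicate 3, against 15.2% of all genes. Among them, chosen after their values were seen, CD14 was at 3.28 and 3.31 against 16.3 and 0.98 TPM, and FCN1, ficolin-1, at 6.41 and 6.69 against 33.5 and 2.93 TPM. NCF1, a subunit of the phagocyte oxidase with near-identical pseudogenes, was at 142 and 140 against 894 and 119 TPM.

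**Figure D5:**
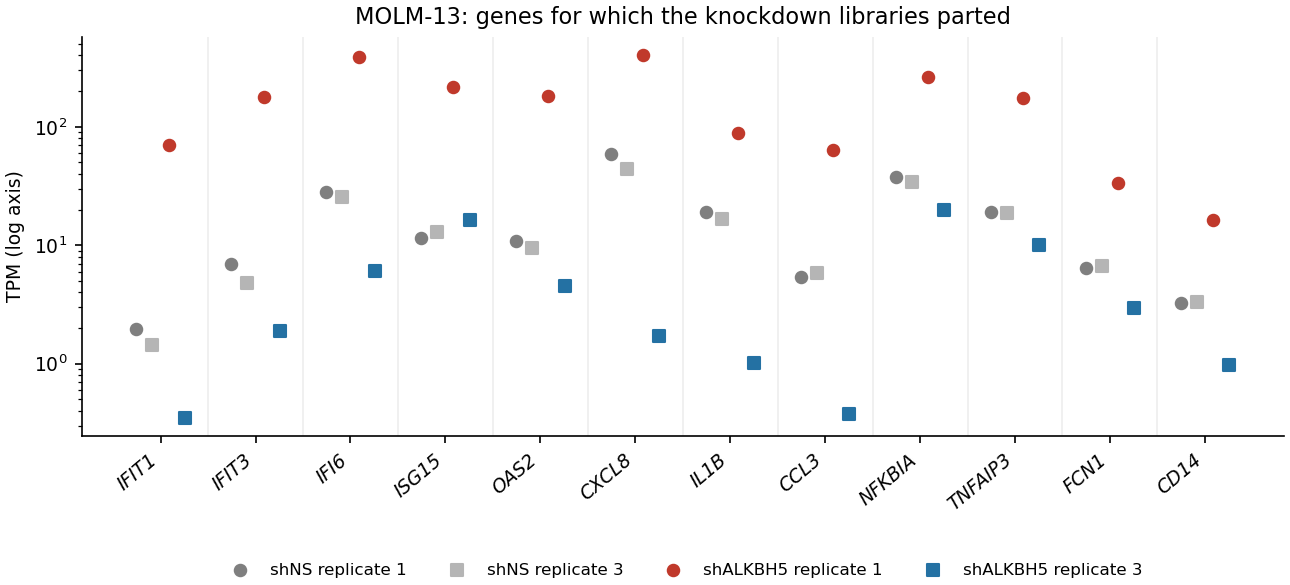
TPM on a log axis in each of the 4 libraries for 12 interferon-stimulated, inflammatory and monocyte genes; grey marks are shNS and coloured marks shALKBH5, circles replicate 1 and squares replicate 3. The genes were picked as ones for which the knockdown libraries parted, so the order follows from the choice. The red circle lies above both controls for each gene and the blue square below both for each gene but ISG15. BST2 and TNFAIP2, above both controls in both knockdown libraries, are not shown.

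Immediate-early genes, which respond to signals within minutes, parted as well but around a lower centre. Of 19 measured, 12 were above both controls in shALKBH5 replicate 1, and 19 were below both controls in replicate 3, against 4959 and 8840 of all 12603 genes tested. The 19 became 17 after median-of-ratios scaling and 16 after quantile scaling. The growth response factor EGR1 was the only called member and fell in both libraries, from 152 and 141 TPM to 14.5 and 3.29 (-4.17, SE 0.63, adjusted p = 0.0216). JUN was at 28.4 and 24.7 against 93.6 and 13.1 TPM and ATF3, a stress-induced factor, at 12.9 and 10.2 against 43.0 and 2.94 TPM. Of 13 measured genes that feed back on ERK signalling, 6 were lower and none was higher, against 16.4% and 4.22% of all genes tested. Their median difference from the control mean was -0.15 in shALKBH5 replicate 1 and -1.31 in replicate 3, against -0.11 and -0.43 over all genes. In replicate 1, 3 were at least 2-fold above the control mean and 6 at least 2-fold below. For 5 of the 13, replicate 1 stood above both controls and replicate 3 below both, against 15.2% of all genes tested. The lower genes were the ETS factors ETV4 (6.17 and 6.72 against 0.33 and 0 TPM) and ETV5 (22.3 and 22.9 against 5.54 and 2.10 TPM), SPRY4, SPRED1, DUSP4 and the ERK phosphatase DUSP6 (107 and 100.97 against 36.8 and 11.5 TPM, -2.27, adjusted p = 0.0495). DUSP5, of the same phosphatase family, was at 5.67 and 5.33 against 18.7 and 2.71 TPM and was not called. Of 17 tested iron and antioxidant genes 2 were higher and none lower, against 4.22% and 16.4% of all genes tested. In 10 of the 17 (58.8%) replicate 1 stood above both controls and replicate 3 below both, against 15.2% of all genes. These became 4 (23.5%) against 6.86% after median-of-ratios scaling and 3 (17.6%) against 5.97% after quantile scaling. Other members were above both controls in both libraries without being called: the ferritin heavy chain FTH1 was at 655 and 621 TPM in the controls, 5593 in replicate 1 and 1248 in replicate 3 (2.05, adjusted p = 0.104), and the haem-degrading HMOX1 at 3.99 and 3.55 against 74.3 and 11.95 TPM (2.71, adjusted p = 0.0826). The light chain FTL was called (3381 and 3473 against 9358 and 7774 TPM, 1.32, adjusted p = 0.0148).

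In the reverse order, replicate 3 stood above and replicate 1 below both controls. Among the 12 genes of at least 10 TPM with the widest gap in this direction, CST7, cystatin F, was at 44.0 and 41.2 TPM in the controls, 29.7 in shALKBH5 replicate 1 and 62.9 in replicate 3, and RAC3, a small GTPase, at 9.27 and 11.7 against 6.83 and 20.9 TPM. Of the 12, 4 were small nucleolar RNA or microRNA rows. Of the 76 measured cytosolic ribosomal protein genes 20 had this order, against 1.9% of all genes tested. Ribosomal protein genes summed to 288210 and 292241 TPM in the controls, 293965 in replicate 1 and 378499 in replicate 3, out of 1000000 in each library. Among the 76 genes 3 were higher and 5 lower, against 4.22% and 16.4% of all genes tested. These were 14 and 7 after quantile scaling, 2 and 2 after median-of-ratios scaling, 54 and 9 without shALKBH5 replicate 1, 26 and 18 without replicate 3, and 0 and 1 without either control. RPS10 was at 3739 and 3885 against 1222 and 1253 TPM (-1.62, SE 0.13, adjusted p = 0.00832) and RPL5 at 3355 and 3273 against 1285 and 1346 TPM, while RPS19 was at 2029 and 2186 against 3540 and 4777 TPM (0.96, adjusted p = 0.0356). Processed pseudogenes make the values of single ribosomal protein genes uncertain.

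RNA-binding and growth genes completed the falls. The counts of the lists that follow stand against 4.22% higher and 16.4% lower over all genes tested. Of 30 SR proteins and hnRNPs, which select splice sites and package nascent RNA, 22 were lower and none higher; without either control 5 were lower. SRSF11 was at 139 and 132 against 45.2 and 38.5 TPM (-1.67, SE 0.17, adjusted p = 0.0109) and HNRNPA1 at 1841 and 1751 against 704 and 580 TPM (-1.49). Of 41 MYC targets in ribosome assembly 15 were lower and none higher (1 without either control; 33 and 30 without shALKBH5 replicates 1 and 3), with the nucleolar proteins NPM1 at 2930 and 2895 against 1057 and 940 TPM (-1.55) and NCL at 1307 and 1239 against 646 and 607 TPM (-1.02). In the ATF4 stress list 3 of 30 were higher and 7 lower (1 and 1 without either control); PHGDH, the first enzyme of serine synthesis, was at 74.8 and 76.6 against 18.6 and 8.27 TPM (-2.51, SE 0.39, adjusted p = 0.0224). In the glycolysis list 1 of 22 was higher and 3 lower, near the 4.22% and 16.4% of all genes tested. The glucose carriers fell (SLC2A1, 16.2 and 14.3 against 4.89 and 3.61 TPM; SLC2A3, 89.6 and 82.5 against 24.3 and 11.7 TPM), while HK1, a hexokinase, rose (3.81 and 3.93 against 11.8 and 13.05 TPM, 1.46, adjusted p = 0.0137). Among cytosolic and mitochondrial chaperones 7 of 23 were lower and 1 higher (none without either control), the higher being the heat shock gene HSPA1A (16.2 and 17.3 against 50.6 and 37.5 TPM), whose copy HSPA1B is near-identical.

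Calls among genes of programmed cell death were about as frequent as over all genes tested (4.22% higher and 16.4% lower). Of 23 pro-apoptotic genes 1 was higher and 3 lower (1 and 2 lower, with none higher, without shNS replicates 1 and 3). BAK1, a pore former of the mitochondrial membrane (25.6 and 26.2 against 49.7 and 39.96 TPM, 0.76, adjusted p = 0.0495), APAF1, the scaffold of the apoptosome (56.5 and 55.2 against 25.2 and 17.4 TPM, -1.37), and the caspase CASP6 (-0.97) were among them. After median-of-ratios scaling 6 were higher and 4 lower, and the median of this list changed sign from -0.12 to 0.13. BCL2 was the only called gene of 8 measured anti-apoptotic genes. MCL1, another survival factor of the family, was at 284 and 254 TPM in the controls, 230 in shALKBH5 replicate 1 and 83.3 in replicate 3 (-0.95, adjusted p = 0.218), and BCL2A1, an NF-kB target, at 6.21 and 6.73 against 38.2 and 1.13 TPM.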

How the data were processed

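Messenger RNA of 4 MOLM-13 libraries was sequenced, 2 with each hairpin. The authors deposited 1 table of TPM values per gene symbol; RSEM, STAR and the GRCh38 build are named per the submitters' processing notes, but no version, annotation release or strandedness is stated there. Each library sums to 1000000 TPM, so depth is unknown and no read counts were recovered; the count test planned for that case was not run. TPM is a share, so a rise in abundant genes lowers the rest. Genes of at least 1 TPM in at least 2 of the 4 libraries were fitted as log2(TPM + 1) with limma 3.58.1 in R 4.3.3 (trended empirical Bayes, 2 residual and 2.67 prior degrees of freedom), with Benjamini-Hochberg adjustment at 0.05. A fold on this scale understates the change of low genes. The other 4 libraries were left out, except in 1 alternative. Tested on simulated data at this size, the fit called 40 of 40 genes at a log2 change of -3, 36 at -2, 9 at -1, 8 at 1 and 39 at 2. It also called 7 unchanged genes. The simulation gave both groups the same spread and drew genes independently, whereas the real knockdown libraries differed more than the controls. These counts therefore do not give the recovery in the real comparison.

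The members and the 47 gene lists were chosen with earlier results of these data known. Genes named are 10 of interest, the 15 largest called and non-overlapping changes each way with a larger group mean of at least 5 TPM, the 4 of smallest p in each list, and the 12 each way with the widest gap between knockdown libraries on opposite sides of both controls. Added after seeing the data were 15 protein-coding rises and 15 falls outside the lists, and other list members named were also chosen after their values were seen. A few genes that these rules name are not reported here. Promoter and microRNA sequences are from RefSeq (GRCh38.p14). Scaling, filter, pseudocount, replicate block and left-out libraries were tried as alternatives.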

Additional observations from a re-analysis of the deposited data

How the results depend on the processing

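ALKBH5 kept its direction and its call under all 14 alternatives. The 532 higher genes became 78 with no filter on low values, 1785 with median-of-ratios scaling, 2058 with quantile scaling and 1482 with all 8 libraries in 1 fit, and ranged from 236 to 2984 when 1 library was left out. The 2061 lower genes became 464 with no filter and 4498 with all 8 libraries, and ranged from 726 to 7205 when 1 library was left out. The cause of these shifts was not tested. Deviations of same-numbered libraries correlated at r = 0.078 over genes, so the numbers were not taken to pair the libraries; with a replicate block 995 genes were higher and 3099 lower. Of 237 named genes, none of the 17 that follow was called with both knockdown libraries, and each passed the threshold in the opposite direction when 1 knockdown library was left out. Their log2 change over the fits that left out 1 library ranged as follows: AXL -0.82 to 1.01, NCF1 -0.25 to 2.66, CXCL8 -4.26 to 2.96, IFIT3 -1.24 to 4.71, IFIT2 -0.85 to 4.98, IFI6 -1.97 to 3.80, IFIT1 -0.99 to 4.74, CCL3 -2.25 to 3.31. It ranged likewise for IL1B -3.23 to 2.25, OAS3 -0.92 to 4.52, SNORD58A -3.90 to 1.49, IFI44 -1.69 to 3.48, CCL3L3 -2.89 to 2.25, RGS1 -2.07 to 3.01, MZT2A -0.88 to 0.31, HIST1H2BC -0.49 to 0.61, CST7 -0.51 to 0.55. Calls of named genes were lost 88 times with no filter, 58 times without shNS replicate 1 and 57 times without shNS replicate 3. Read depth is unknown in these files, so what it limits cannot be given.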
